A study of Mus musculus with 4 samples.

Results

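Cell cycle and DNA replication genes were followed in mouse neural progenitor cells (NPCs) on a soft and a stiff matrix, with and without knockdown of Srf. The 49 genes were taken by symbol from a written list, and all 49 were found among the 21862 gene symbols that each library listed a single time. They fall into 13 S-phase genes, 23 mitotic genes, 9 genes of G1 and the G1/S step and 4 transcription factors. The cells were N31 NPCs, 1 line derived from iPSCs that came from NPCs of the ESC line EB5. All libraries therefore share the Dox-inducible OKMS reprogramming genes and a CAG-driven rtTA transgene. Control NPCs were compared with N31 NPCs that expressed shSrf#1, a short hairpin RNA against Srf delivered by a retrovirus with an H1 promoter, and whether the controls carried an empty vector is not given in the sources used here. Each population was kept in NPC medium lacking EGF and bFGF, on matrices of 0.5 kPa (soft) or 12 kPa (stiff) over type I collagen. The 4 conditions had 1 library each, so the spread between replicates is unknown and no p-values are given.

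The cell cycle is driven by cyclin-dependent kinases (Cdks) whose cyclin partners appear and disappear in turn. D-type cyclins with Cdk4 or Cdk6 and cyclin E with Cdk2 act against the Rb family in G1 and so release E2F factors, which drive genes for replication licensing, the Mcm helicase and nucleotide supply. Later in the cycle the MuvB complex with B-Myb (Mybl2) and FoxM1 drives the genes of G2 and mitosis, among them cyclin B, the mitotic kinases, the spindle checkpoint and the kinetochore motors. Withdrawal of EGF and bFGF is commonly used to slow division of neural progenitors, and the levels of these genes are widely read as a mark of cycling cells.

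Some start regions of these genes carry the letters by which E2F and MuvB complexes are known, and 7 regions are shown. No ratio below was tested against these letters. RefSeq tables of GRCm38.p6 (mm10) gave 41 start regions for 38 of the 49 members, each reaching from 250 bases before the transcription start to 50 bases after it. Capitals mark a match on either strand to an E2F motif (TTTCCCGC, TTTGGCGC, TTTCGCGC or TTTGCCGC), a CHR motif (TTTGAA or TTCGAA) or a CCAAT box (CCAAT), and overlapping matches run together.
Mcm6, chr1:128359656-128359955, minus strand: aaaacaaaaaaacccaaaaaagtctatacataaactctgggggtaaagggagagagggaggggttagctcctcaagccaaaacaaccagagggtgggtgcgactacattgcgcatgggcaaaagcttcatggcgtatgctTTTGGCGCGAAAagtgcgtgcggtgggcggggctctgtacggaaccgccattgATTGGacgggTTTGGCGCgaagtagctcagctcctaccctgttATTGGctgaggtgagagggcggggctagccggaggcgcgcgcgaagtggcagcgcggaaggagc
Mcm2, chr6:88898731-88899030, minus strand: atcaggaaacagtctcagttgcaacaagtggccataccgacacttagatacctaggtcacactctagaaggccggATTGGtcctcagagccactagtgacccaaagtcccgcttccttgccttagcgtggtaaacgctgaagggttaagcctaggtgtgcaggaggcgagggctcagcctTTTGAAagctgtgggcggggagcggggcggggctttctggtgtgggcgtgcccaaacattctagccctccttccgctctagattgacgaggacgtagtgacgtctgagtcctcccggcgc
Cdk1, chr10:69352863-69353162, minus strand: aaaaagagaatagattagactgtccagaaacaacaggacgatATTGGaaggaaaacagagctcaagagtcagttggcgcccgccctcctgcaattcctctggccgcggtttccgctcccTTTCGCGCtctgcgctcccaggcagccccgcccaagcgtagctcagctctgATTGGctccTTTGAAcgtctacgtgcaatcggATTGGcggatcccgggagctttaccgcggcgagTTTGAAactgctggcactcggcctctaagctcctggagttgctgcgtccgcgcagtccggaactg
Bub1, chr2:127831810-127832109, minus strand: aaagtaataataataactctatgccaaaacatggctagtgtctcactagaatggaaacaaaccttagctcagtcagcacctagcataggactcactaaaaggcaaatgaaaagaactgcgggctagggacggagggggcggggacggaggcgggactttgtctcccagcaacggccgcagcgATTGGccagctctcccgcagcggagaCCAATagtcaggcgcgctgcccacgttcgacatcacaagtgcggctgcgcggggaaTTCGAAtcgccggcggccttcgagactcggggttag
Bub1b, chr2:118597961-118598260, plus strand: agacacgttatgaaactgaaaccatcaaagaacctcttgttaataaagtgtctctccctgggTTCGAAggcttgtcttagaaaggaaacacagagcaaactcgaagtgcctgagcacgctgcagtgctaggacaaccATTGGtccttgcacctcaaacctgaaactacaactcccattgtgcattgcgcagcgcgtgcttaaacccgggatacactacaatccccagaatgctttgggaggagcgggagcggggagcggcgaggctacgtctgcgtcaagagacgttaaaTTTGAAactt
Cenpe, chr3:135212313-135212612, plus strand: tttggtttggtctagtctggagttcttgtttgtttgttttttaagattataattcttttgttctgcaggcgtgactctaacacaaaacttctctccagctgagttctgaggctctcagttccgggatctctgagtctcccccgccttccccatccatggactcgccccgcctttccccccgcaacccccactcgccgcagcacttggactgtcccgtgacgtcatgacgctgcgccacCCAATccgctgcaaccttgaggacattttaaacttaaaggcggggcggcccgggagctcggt
Cdk4, chr10:127063285-127063584, plus strand: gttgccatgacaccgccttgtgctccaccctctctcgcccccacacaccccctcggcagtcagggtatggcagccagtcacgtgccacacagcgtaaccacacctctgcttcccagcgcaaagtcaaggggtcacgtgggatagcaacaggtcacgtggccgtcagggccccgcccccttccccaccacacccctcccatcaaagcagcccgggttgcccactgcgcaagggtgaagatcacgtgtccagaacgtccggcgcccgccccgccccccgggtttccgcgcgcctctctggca
Mcm6 shows the S-phase form, with E2F letters that begin at positions -110, -106 and -47 from the start, the first pair overlapping on opposite strands. Cdk1 and Bub1 show the mitotic form, in which CHR letters lie at -71 and -15 in Cdk1 and at 15 in Bub1, downstream of CCAAT boxes. Cdk1 also holds E2F letters at -131 and is the only mitotic region with an E2F match. Not every region shown has the form of its class. The S-phase gene Mcm2 holds a CHR match but no E2F match, and the mitotic gene Cenpe holds a CCAAT box but no CHR match. The region of Cdk4 holds no match to any of these motifs. Over all 41 member regions 10 (24.4%) held an E2F match and 16 (39.0%) a CHR match. Of 12 S-phase start regions 6 (50%) held an E2F match, against 1 of 18 mitotic regions (5.56%) and 2.26% of all 32851 mouse start regions. A CHR match was found in 13 of the 18 mitotic regions (72.2%), in 2 of the 12 S-phase regions (16.7%) and in 19.2% of all regions. CCAAT boxes were held by 9 S-phase and 15 mitotic regions and by 37.4% of all. The CArG box, the motif bound by Srf, was present in 1 member region, that of Tyms, and in 1.63% of all regions. A match describes the letters only, and no binding was measured. No sequence is shown for Mcm4, Gins2, Cdc25c, Kif20a, Aurkb, Ccna2, Tpx2, Ccnd1, Ccnd2, Ccne2 and Foxm1.

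The libraries held an estimated 28800000 reads for control NPCs at 0.5 kPa, 23900000 at 12 kPa, and 44600000 and 61700000 for shSrf NPCs. Levels are FPKM, read numbers scaled to transcript length and to the mapped reads of the library, so that genes can be compared per length. Srf itself stood at 34.4 and 35.6 in control NPCs on the soft and stiff matrix and at 16.2 and 17.4 in shSrf NPCs. The NPC label was checked against 11 markers, of which 5 or 6 were above an FPKM of 2 in each library, while Sox1, Hes5 and Olig2 were listed at 0 in all. Of 8 mesenchymal markers 7 or 8 were above 2, of 6 neuron markers 3, of 5 astrocyte markers 1 and of 5 pluripotency markers 0 or 1. Some markers moved with the knockdown: Sox2 was at 4.29 and 5.49 in control and 19.1 and 20.4 in shSrf NPCs, Nes at 51.6 and 36.1 against 16.4 and 15.5, and the summed neuron markers at 52.3 and 56.4 against 120 and 115. Their part in the knockdown ratios below was not tested. The NPC markers summed to 96.5 and 90.1 in control and 58.5 and 61.8 in shSrf NPCs, and the mesenchymal markers to between 2486 and 2662. Most of the latter sum was Col3a1, between 1584 and 1908, while Postn was at 188 and 259 in control and 30.2 and 36.8 in shSrf NPCs, and Col1a2 at 570 and 555 against 338 and 388. The neuron markers Dcx and Rbfox3 were at or near 0 in all libraries.

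The members were well expressed in every library. Of the 49, 48 passed the minimum used for ratios, an FPKM above 2 in each of the libraries, as did 10489 genes in all. The exception was E2f2, an activating E2F factor, at 2.13 and 1.78 in control NPCs and 1.08 and 1.42 in shSrf NPCs on the 0.5 and 12 kPa matrices, and no ratio is given for it. By mean FPKM the median was 73.8 over the S-phase genes and 53.5 over the mitotic genes, and the median member stood at the 78.7th percentile of the included genes. Cdk4, the kinase partner of D-type cyclins, was the highest member, with FPKM values of 745 and 739 in control and 1121 and 1071 in shSrf NPCs. Its relative Cdk6 was the lowest of those above the minimum, between 3.41 and 4.43.

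**Figure D1:**
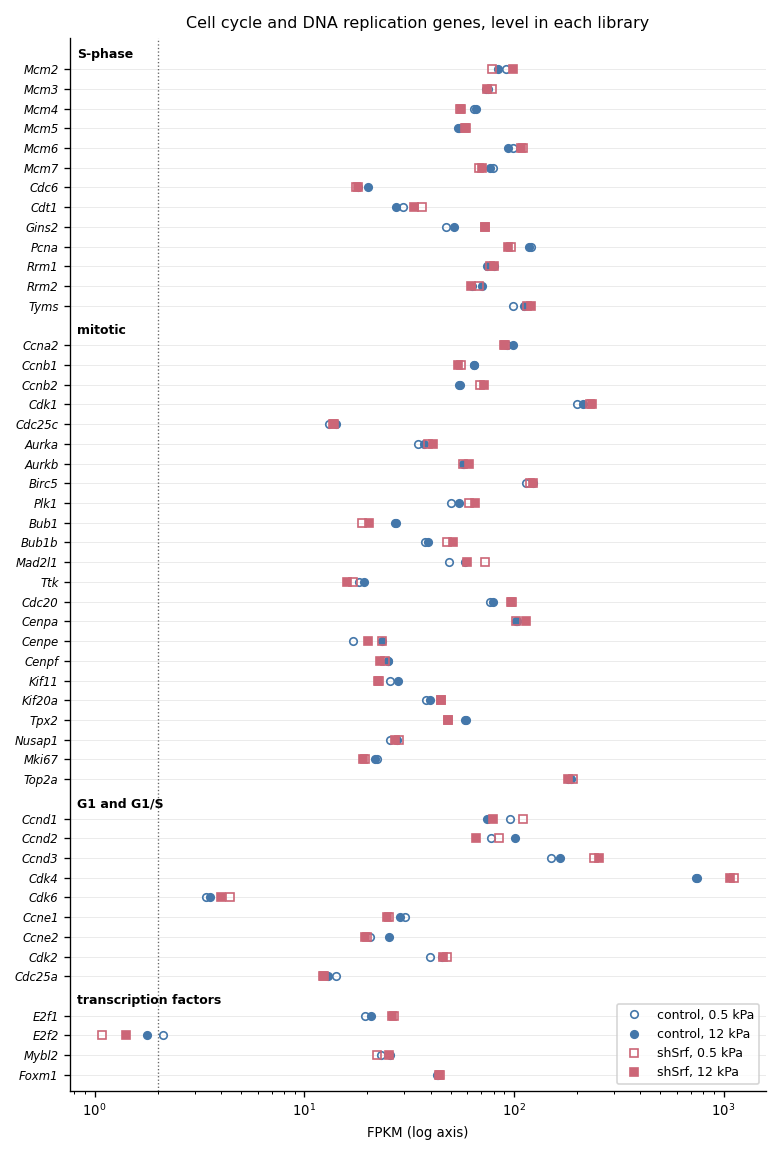
FPKM of the 49 members on a log axis, with 1 point for each of the 4 libraries (open, 0.5 kPa; filled, 12 kPa; circles, control; squares, shSrf) and a dotted line at the minimum FPKM of 2. The 4 points of most genes lie close together, and E2f2 is the only member with points below the line.

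The levels differed little among the 4 libraries. The highest library of a member was a median of 1.19 times its lowest, against 1.32 times over all included genes and 1.29 times over those with a mean FPKM of 10 or more. For 26 of the 48 members the highest library was under 1.2 times the lowest, and for 44 it was under 1.5 times. The shares of all genes under these limits were not computed, so these counts have no background beside them. FoxM1 was the steadiest, at 43.1, 43.4, 44.5 and 43.9. The G1 genes spread more, with a median of 1.31, than the S-phase genes (1.18) and the mitotic genes (1.18). Summed over genes, S-phase FPKM was 922, 922, 933 and 948 in control at 0.5 and 12 kPa and in shSrf at 0.5 and 12 kPa, and mitotic FPKM was 1387, 1456, 1498 and 1501. The ratio of the mitotic to the S-phase sum was lowest in control NPCs at 0.5 kPa, at 1.504, and was 1.58, 1.61 and 1.58 in the others. In bulk RNA, fewer cells in a phase of the cycle and less RNA per cell cannot be told apart.

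**Figure D2:**
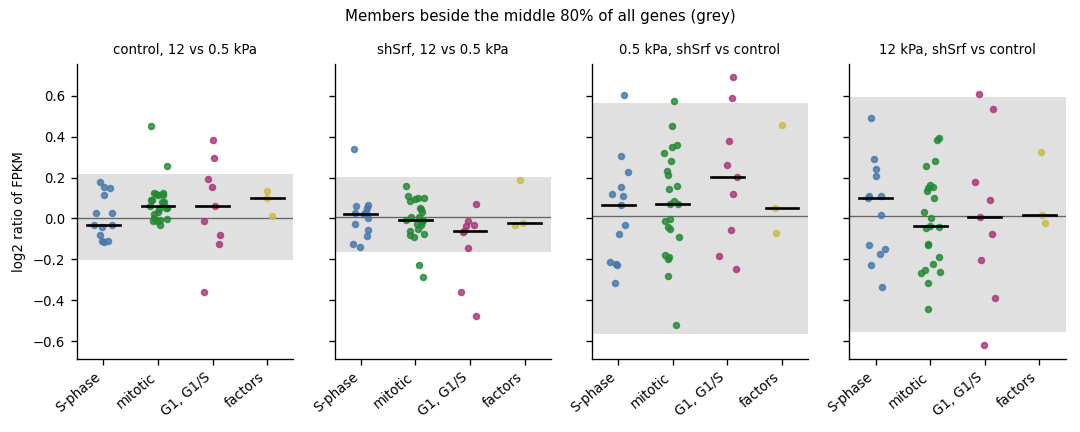
log2 ratios of FPKM for the 48 members above the minimum, 1 point a gene and 1 panel a comparison, with the median of each group as a black bar. The grey band spans the 10th to 90th percentile of all 10489 genes and the grey line is their median. The band is wider for the knockdown ratios, and the S-phase and mitotic medians stay between -0.04 and 0.10 in every panel.

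Stiffness in control NPCs was compared first, as the ratio of 12 to 0.5 kPa (stiff-to-soft ratio). A gene was counted as lower or higher when it passed 1.1-fold, a log2 ratio of 0.14. The median log2 ratio was -0.03 over the 13 S-phase genes and 0.06 over the 23 mitotic genes, beside 0.00305 over all genes. By this threshold 1 of the 48 members was lower on the stiff matrix, where 16.9% of all genes were, and 9 were higher, where 17.9% of all genes were. The lower member was Ccnd1, and the higher ones were Cdc6, Rrm2 and Tyms of the S-phase genes, Mad2l1 and Cenpe of the mitotic genes and Ccnd2, Ccnd3, Ccne2 and Cdk2 of the G1 genes. None passed 1.5-fold, which 1.82% of all genes did. Among the 47 members with a mean FPKM of 10 or more, 10 passed 1.1-fold in either direction, against 30.2% of genes at such levels. The ratio was above 1 for 32 members and for 18 of the 23 mitotic genes, but for 6 of the 13 S-phase genes, where 50.9% of all genes had a ratio above 1.

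In shSrf NPCs the same comparison gave a median of 0.02 over the S-phase genes and -0.01 over the mitotic genes, beside 0.0064 over all genes. Of the 48 members 5 were lower on the stiff matrix, where 13.0% of all genes were, and 3 were higher, where 17.6% were. The lower members were Mad2l1, Cenpe, Ccnd1, Ccnd2 and Cdk6, and the higher ones were Mcm2, Cenpa and Mybl2. None passed 1.5-fold, as 0.782% of all genes did. Of the 47 members with a mean FPKM of 10 or more, 7 passed 1.1-fold in either direction, against 26.6% of such genes. The ratio was above 1 for 21 members and 52.1% of all genes. Across control and shSrf NPCs, which share no library, 34 of the 48 members were within 1.1-fold in each, where 5141 of all 10489 genes were. In each population 1 member (Ccnd1) was lower and 0 were higher, where 3.24% and 5.10% of all genes were. A further 3 (Mad2l1, Cenpe and Ccnd2) were past it in opposite directions, as were 6.01% of all genes.

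**Figure D3:**
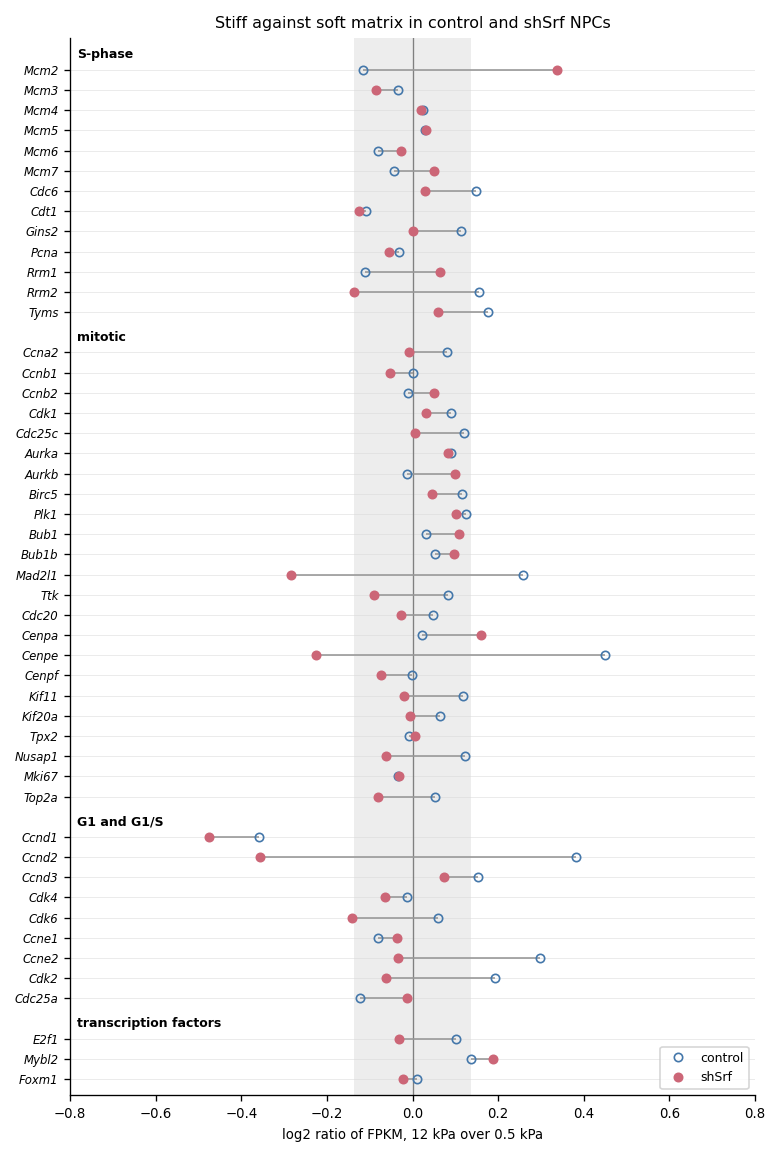
log2 ratio of FPKM at 12 over 0.5 kPa for the 48 members above the minimum, in control (open) and shSrf NPCs (filled), with a line joining the 2 values of a gene and a grey band for ratios within 1.1-fold. Ccnd1 lies left of the band in both populations, and Ccnd2, Cenpe and Mad2l1 lie right of it in control and left of it in shSrf NPCs.

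Knockdown of Srf was then compared with control at each stiffness, as the ratio of shSrf to control (knockdown ratio). Its median on the log2 scale was 0.07 at 0.5 kPa and 0.10 at 12 kPa over the S-phase genes, and 0.07 and -0.04 over the mitotic genes, beside 0.01 and 0.00981 over all genes. At 0.5 kPa 11 of the 48 members were lower by more than 1.1-fold and 20 higher, where 35.7% and 37.4% of all genes were, and 3 passed 1.5-fold, where 18.5% of all genes did. At 12 kPa 14 were lower and 15 higher, where 35.9% and 37.6% of all genes were, and 2 passed 1.5-fold, where 19.1% did. Of the 47 members with a mean FPKM of 10 or more, 30 and 28 passed 1.1-fold in either direction, against 71.4% and 72.3% of genes at such levels. The knockdown ratios at 0.5 and 12 kPa share no library. In them 14 of the 48 members were higher at each stiffness and 8 were lower at each, where 30.3% and 28.8% of all genes were. Past 1.1-fold in opposite directions were 2 members (Mcm2 and Cenpe) and 2.42% of all genes, and within it at each stiffness were 12 members and 1560 of all 10489 genes. Those past 1.5-fold were Gins2, Ccnd3 and Cdk4 at 0.5 kPa and Ccnd2 and Ccnd3 at 12 kPa. As deposited, neither class moved as a block, since 3 S-phase and 7 mitotic genes were higher at each stiffness while 2 and 5 were lower. Centring for GC content, given below, left fewer mitotic genes lower.

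**Figure D4:**
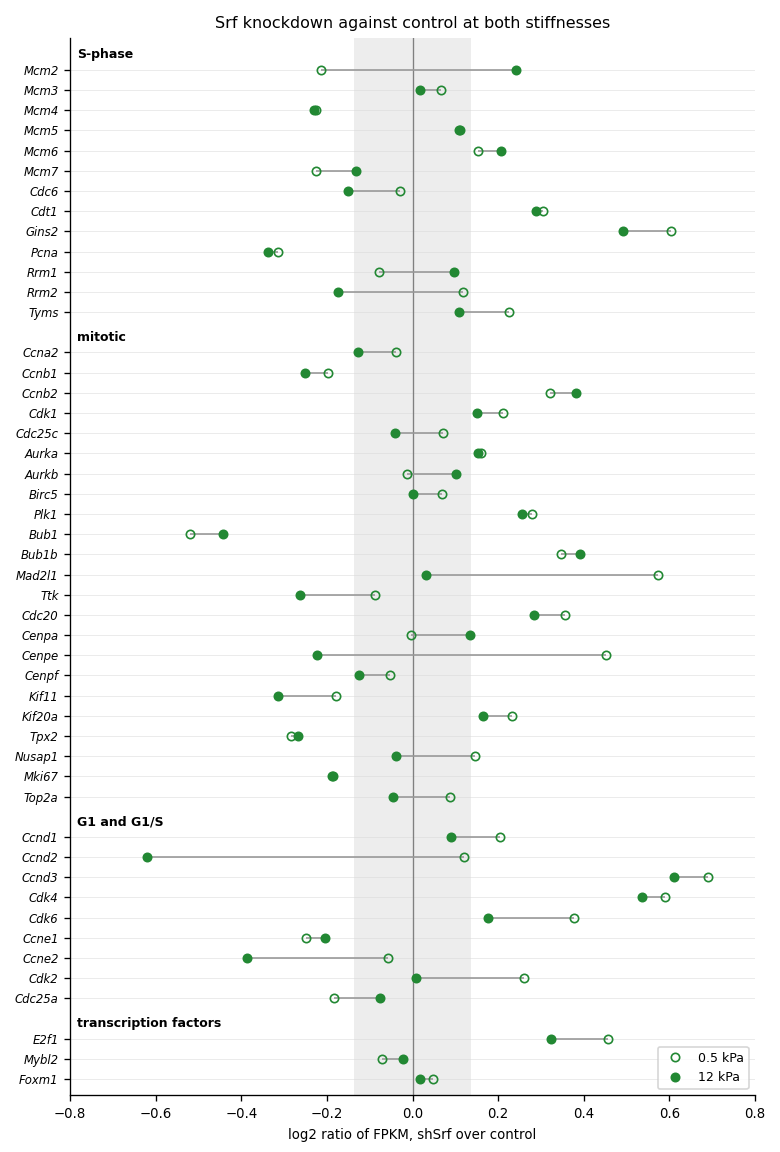
log2 ratio of FPKM in shSrf over control NPCs for the 48 members above the minimum, at 0.5 kPa (open) and 12 kPa (filled), with a line joining the 2 values of a gene and a grey band for ratios within 1.1-fold. Genes of a group lie on both sides of the band, for example Bub1 on the left and Bub1b on the right, and Ccnd2, Cenpe and Mad2l1 have the widest gaps between stiffnesses.

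The knockdown ratios also followed the base composition of the transcripts. Spearman's rho between the log2 ratio and the GC content was 0.35 over the 48 members at 0.5 kPa and 0.67 at 12 kPa, and 0.27 and 0.42 over 9569 genes, where all points of a comparison share the same 2 libraries. For the ratio of 12 to 0.5 kPa it was -0.23 in control and 0.29 in shSrf NPCs over the members. When each ratio was centred on the median of genes of like GC content, 27 of the 31 members past 1.1-fold at 0.5 kPa stayed past it in the same direction, but only 14 of the 29 at 12 kPa. The median over mitotic genes was then 0.16 and 0.06, and that over S-phase genes 0.01 and 0.0031. By centred ratios 2 mitotic genes were lower and 12 higher at 0.5 kPa, and 1 and 7 at 12 kPa. Of the S-phase genes 3 were lower and 5 higher at 0.5 kPa, and 2 and 4 at 12 kPa. Of 9569 genes 3398 were lower and 3341 higher at 0.5 kPa, and 3310 and 3274 at 12 kPa. Of the 5 mitotic genes lower at each stiffness as deposited, only Bub1 stayed past 1.1-fold at each. At 0.5 kPa centring also took 6 members past 1.1-fold that had been within it, which were Rrm2, Cdc25c, Top2a, Ccnd2, Ccne2 and Mybl2. At 12 kPa it took 7, which were Rrm1, Tyms, Mad2l1, Nusap1, Top2a, Mybl2 and FoxM1. Values are as deposited unless given as centred, and centred values follow below for each knockdown ratio printed that came within 1.1-fold.

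Replication licensing is the loading of the Mcm2 to Mcm7 helicase onto origins by Cdc6 and Cdt1. The 6 Mcm genes summed to an FPKM of 464, 449, 449 and 468, and the highest of them was between 1.70 and 1.99 times the lowest within a library. Mcm2 had FPKM values of 91.3 and 84.2 in control and of 78.7 and 99.5 in shSrf NPCs at 0.5 and 12 kPa. It was lowest in shSrf NPCs on the soft matrix and highest in shSrf NPCs on the stiff matrix, with a stiff-to-soft log2 ratio of -0.12 in control and 0.34 in shSrf NPCs. Its knockdown ratio was therefore -0.21 at 0.5 kPa and 0.24 at 12 kPa, the latter 0.05 after centring for GC content. Mcm2 was the only S-phase gene past 1.1-fold between stiffnesses in shSrf NPCs, and after centring Cdt1 (-0.20) passed it too. Mcm3 and Mcm5 were within 1.1-fold in all 4 comparisons. Mcm6 was higher in shSrf NPCs at each stiffness, with log2 ratios of 0.15 and 0.21. Mcm4 was lower, at -0.22 and -0.23, which became -0.08 and -0.05 after centring, and Mcm7 was at -0.23 and -0.13.

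Gins2, a subunit of the GINS complex that turns the Mcm ring into an active helicase, had the largest knockdown ratio of the S-phase genes. Its FPKM was 47.6 and 51.5 in control and 72.4 and 72.5 in shSrf NPCs, so that both shSrf libraries lay above both control libraries. The knockdown log2 ratio was 0.60 at 0.5 kPa and 0.49 at 12 kPa, with a standard error from counting of 0.03 at 0.5 kPa. Gins2 (chromosome 8, 120581266 to 120589075 on GRCm38) overlaps Gse1, and reads of overlapping genes may not be fully parted. Cdt1, which loads the helicase, had FPKM values of 29.4 and 27.3 in control and 36.4 and 33.4 in shSrf NPCs. Its log2 ratios of 0.31 and 0.29 were 0.14 and 0.0031 after centring for GC content. Cdc6 was higher on the stiff matrix in control NPCs, with a log2 ratio of 0.15, and lower in shSrf than in control NPCs at 12 kPa, at -0.15.

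At the fork, Pcna is the sliding clamp that holds the polymerases. Its FPKM was 120 and 118 in control and 96.9 and 93.2 in shSrf NPCs, lower in both shSrf libraries than in both controls. The knockdown log2 ratios were -0.31 and -0.34, and -0.24 and -0.17 after centring for GC content. Pcna-ps1 and Pcna-ps2 are named pseudogenes of Pcna, so its level is uncertain where reads match either. Rrm1 and Rrm2 form ribonucleotide reductase, and Tyms makes thymidylate. Rrm1 was within 1.1-fold throughout, but its knockdown ratio at 12 kPa was 0.26 after centring for GC content. Rrm2 and Tyms were higher on the stiff matrix in control NPCs, with log2 ratios of 0.15 and 0.18, that of Rrm2 being 0.13 after centring. In shSrf NPCs Rrm2 was at -0.1373 and Tyms at 0.06 in the same comparison, each within 1.1-fold, Rrm2 only just (limit 0.1375). With the knockdown Rrm2 was at 0.12 at 0.5 kPa and -0.17 at 12 kPa, the latter -0.04 after centring. Tyms, the member with a CArG box, was at 98.9, 112, 116 and 120, and its knockdown ratio was 0.23 at 0.5 kPa and 0.11 at 12 kPa.

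Among the mitotic genes, those of the cyclin-Cdk1 switch were within 1.1-fold between stiffnesses in each population. Cdk1, the kinase that starts mitosis, had FPKM values of 199.97 and 213 in control and of 231 and 236 in shSrf NPCs. It was higher in both shSrf libraries, with knockdown log2 ratios of 0.21 and 0.15. Its cyclin partners moved apart with the knockdown. Ccnb2 was at 55.4 and 55.0 in control and 69.2 and 71.7 in shSrf NPCs, with log2 ratios of 0.32 and 0.38. Ccnb1 was at 64.5 and 64.5 in control and 56.2 and 54.1 in shSrf NPCs, with log2 ratios of -0.20 and -0.25, or -0.10 and -0.04 after centring for GC content. Summed, the B-type cyclins were at 120, 119, 125 and 126. Both have a named pseudogene. Ccna2 and Cdc25c, a phosphatase that activates Cdk1, were within 1.1-fold in all comparisons. After centring, the knockdown ratio of Cdc25c at 0.5 kPa was 0.17.

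Of the mitotic kinases, Aurka and Plk1 were higher in shSrf NPCs at each stiffness. Plk1 was at 50.2 and 54.7 in control and 60.9 and 65.3 in shSrf NPCs. Its knockdown log2 ratio was 0.28 at 0.5 kPa and 0.26 at 12 kPa, the latter 0.06 after centring for GC content. Aurka was at 0.16 and 0.15, the latter 0.11 after centring. Aurkb and Birc5 (survivin), both of the chromosomal passenger complex, were within 1.1-fold in all comparisons.

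Mad2l1 and Bub1, of the spindle checkpoint, had the widest range of levels among the mitotic genes. Bub1 and Bub1b are related proteins, the kinase Bub1 being a scaffold at kinetochores and BubR1 (Bub1b) a part of the complex that inhibits the anaphase-promoting complex. Bub1 had FPKM values of 26.9 and 27.5 in control and of 18.8 and 20.3 in shSrf NPCs. Bub1b had values of 37.5 and 38.9 in control and of 47.7 and 51.0 in shSrf NPCs. In each case both shSrf libraries lay on one side of both control libraries, below them for Bub1 and above them for Bub1b. The knockdown log2 ratios were -0.52 and -0.44 for Bub1 and 0.35 and 0.39 for Bub1b. After centring for GC content they were -0.32 and -0.16 for Bub1 and 0.34 and 0.40 for Bub1b. The start regions of Bub1 and Bub1b printed above both hold CHR letters and a CCAAT box. Cdc20, which activates the anaphase-promoting complex, was higher at each stiffness, with log2 ratios of 0.36 and 0.28, the latter 0.09 after centring. Ttk (Mps1), the kinase that starts the checkpoint, was at -0.09 and -0.26, the latter -0.03 after centring.

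Mad2l1, which encodes the checkpoint protein Mad2, had FPKM values of 48.9 and 58.5 in control and of 72.9 and 59.8 in shSrf NPCs. The soft matrix thus held both its lowest library, in control, and its highest, in shSrf NPCs, while the stiff libraries lay between them. The stiff-to-soft log2 ratio was 0.26 in control and -0.29 in shSrf NPCs, and that of shSrf to control was 0.57 at 0.5 kPa and 0.03 at 12 kPa, or 0.77 and 0.32 after centring for GC content. Cenpe, a kinesin that moves chromosomes to the spindle equator, showed a similar arrangement. Its FPKM was 17.1 and 23.4 in control and 23.4 and 20.03 in shSrf NPCs, so that control on the soft matrix was the lowest library. The stiff-to-soft log2 ratio was 0.45 in control and -0.23 in shSrf NPCs. The knockdown log2 ratio was 0.45 at 0.5 kPa and -0.22 at 12 kPa, and the latter was 0.0074 after centring for GC content. Cenpa, the centromeric histone, was higher on the stiff matrix in shSrf NPCs, at 0.16, or 0.13 after centring. Cenpf was within 1.1-fold in all comparisons.

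Of the spindle genes, Kif20a was higher and Kif11 and Tpx2 were lower in shSrf NPCs at each stiffness. Kif11, the kinesin that pushes spindle poles apart, had log2 ratios of -0.18 and -0.31, which were -0.03 and -0.09 after centring for GC content. Tpx2, which activates Aurka, was at -0.28 and -0.27, and -0.18 and -0.13 after centring. Kif20a, a kinesin of cytokinesis, was at 0.23 and 0.16, and Nusap1 at 0.15 and -0.04. Between stiffnesses these 4 were within 1.1-fold in each population. Mki67, which codes for the proliferation marker Ki-67, was at 22.3 and 21.8 in control and 19.5 and 19.1 in shSrf NPCs. It was lower with the knockdown by a log2 ratio of -0.19 at each stiffness, or -0.11 and -0.05 after centring, and did not pass 1.1-fold between stiffnesses. Top2a, which untangles sister chromatids, was at 180, 187, 192 and 181 and within 1.1-fold in all comparisons. After centring, its knockdown ratio was 0.19 at 0.5 kPa and 0.17 at 12 kPa.

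The D-type cyclins held the largest ratio of any member in 3 of the 4 comparisons, all but the stiffness comparison in control NPCs, where that of Cenpe was larger. After centring for GC content Mad2l1 (0.77) and Cenpe (0.63) also lay above Ccnd3 in the knockdown comparison at 0.5 kPa. Ccnd1 had FPKM values of 95.6 and 74.6 in control and of 110 and 79.3 in shSrf NPCs, so that both stiff libraries lay below both soft ones. Its stiff-to-soft log2 ratio was -0.36 in control and -0.47 in shSrf NPCs, and it was the only member lower on the stiff matrix in control NPCs. Ccnd2 had FPKM values of 77.8 and 101 in control and of 84.6 and 66.0 in shSrf NPCs. It was highest in control NPCs on the stiff matrix and lowest in shSrf NPCs on the stiff matrix, with a stiff-to-soft log2 ratio of 0.38 in control and -0.36 in shSrf NPCs. At 12 kPa its knockdown ratio was -0.62, the lowest of any member, and at 0.5 kPa it was 0.12. Ccnd1 lies on chromosome 7 from 144929931 to 144939831 and Ccnd2 on chromosome 6 from 127125162 to 127152188 on GRCm38.

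Ccnd3 had FPKM values of 150 and 166 in control and of 241 and 254 in shSrf NPCs. Both shSrf libraries were above both controls, with knockdown log2 ratios of 0.69 (0.5 kPa) and 0.61 (12 kPa), or 0.51 and 0.34 after centring for GC content. Cdk4, whose 4 levels are given above, was higher by 0.59 and 0.54, or 0.50 and 0.34 after centring. Cdk6 had a stiff-to-soft log2 ratio of -0.14 in shSrf NPCs, or -0.11 after centring, with a standard error from counting of 0.08. With the knockdown it was higher by 0.38 and 0.18, with standard errors from counting of 0.10 at 0.5 kPa and 0.11 at 12 kPa. The ratios of -0.14 and 0.18 passed 1.1-fold by less than their errors. The summed D-type cyclins were at 323 and 342 in control and at 436 and 399 in shSrf NPCs. Ccnd3 made up 46.3% and 48.6% of the sum in control and 55.3% and 63.6% in shSrf NPCs, so that its share was largest in shSrf NPCs on the stiff matrix. Ccnd3 (chromosome 17, 47505051 to 47599689 on GRCm38) overlaps Bysl and has a named pseudogene, and Cdk4 (chromosome 10, 127063535 to 127067288) overlaps Tspan31, so their levels may hold reads of these genes.

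**Figure D5:**
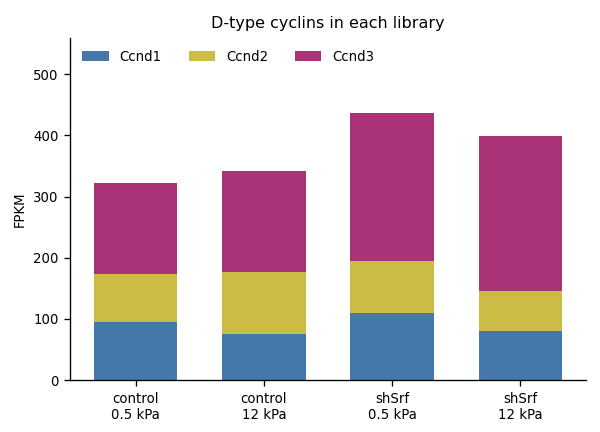
FPKM of Ccnd1, Ccnd2 and Ccnd3 stacked in each of the 4 libraries, with the axis starting at 0. The stacks reach 323, 342, 436 and 399, and the Ccnd3 segment is larger in both shSrf libraries than in both control libraries.

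Cyclin E with Cdk2 acts at the step into S phase. Ccne1 was at 30.3 and 28.6 in control and 25.5 and 24.8 in shSrf NPCs, lower with the knockdown by log2 ratios of -0.25 and -0.21. Ccne2 was at 20.7 and 25.4 in control and 19.9 and 19.4 in shSrf NPCs, and control on the stiff matrix was its highest library. Its stiff-to-soft log2 ratio was 0.30 in control and -0.03 in shSrf NPCs. At 12 kPa its knockdown ratio was -0.39, or -0.06 after centring for GC content, the largest shift of a G1 gene, and its transcript has a GC content of 35.1%. Cdk2 was at 39.9, 45.6, 47.8 and 45.8, with control on the soft matrix the lowest. Its log2 ratio was 0.19 between stiffnesses in control NPCs and 0.26 for the knockdown at 0.5 kPa. Cdc25a, the phosphatase that activates Cdk2, was at 14.2, 13.0, 12.5 and 12.3, and its knockdown ratio was -0.18 at 0.5 kPa and -0.08 at 12 kPa.

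Of the transcription factors, E2f1 had FPKM values of 19.4 and 20.8 in control and of 26.7 and 26.1 in shSrf NPCs. Both shSrf libraries were above both controls, with knockdown log2 ratios of 0.46 (0.5 kPa) and 0.32 (12 kPa), or 0.29 and 0.01 after centring for GC content. Mybl2 was at 23.3, 25.6, 22.2 and 25.3 and was higher on the stiff matrix in shSrf NPCs, with a log2 ratio of 0.19, or 0.12 after centring. The stiff-to-soft ratio of Mybl2 in control NPCs was 0.136, just within 1.1-fold, and 0.15 after centring. Its knockdown ratios were -0.07 at 0.5 kPa and -0.02 at 12 kPa, each within 1.1-fold, but -0.22 and -0.21 after centring. FoxM1 was within 1.1-fold throughout, but its knockdown ratio at 12 kPa was -0.17 after centring.

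Other genes of the same pathways were taken from written lists. Of 58 other replication genes 57 were listed a single time, and all 57 were above the minimum. In shSrf against control NPCs 24 were lower and 11 higher at 0.5 kPa, with 29 lower and 9 higher at 12 kPa. Of all genes 35.7% were lower and 37.4% higher at 0.5 kPa, and 35.9% and 37.6% at 12 kPa. The median log2 ratio was -0.10 and -0.14, and -0.11 and -0.10 after centring for GC content. The lowest ratios were those of the origin recognition subunits Orc2 (-0.65 and -0.84) and Orc4 (-0.68 and -0.68) and of the GINS subunit Gins3 (-0.44 and -0.77). The highest were those of the polymerase subunits Pold2 (0.51 and 0.66) and Pola1 (0.62 and 0.32) and of the repair gene Brca2 (0.37 and 0.33). In the stiffness comparison 6 were lower and 10 higher in control and 6 were lower and 6 higher in shSrf NPCs. Of all genes 16.9% were lower and 17.9% higher in control NPCs, and 13.0% and 17.6% in shSrf NPCs.

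Of 78 other mitosis genes 77 were listed a single time, and all 77 were above the minimum. With the knockdown 31 were lower and 21 higher at 0.5 kPa, and 37 and 25 at 12 kPa, against the same shares of all genes. The median log2 ratio was -0.08 and -0.10, and 0 at each stiffness over the 73 genes with a GC content after centring for it. Shcbp1 (-0.51 and -0.84), the condensin subunit Smc4 (-0.39 and -0.69) and Cdca2 (-0.40 and -0.61) were lowest. Securin, encoded by Pttg1 (0.59 and 0.48), the kinesin Kifc1 (0.52 and 0.53) and Cdca3 (0.47 and 0.54) were highest. In control NPCs 21 of these genes were higher and 5 lower on the stiff matrix, where 17.9% and 16.9% of all genes were. In shSrf NPCs 14 were higher and 4 lower, where 17.6% and 13.0% were.

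The next list held 17 genes of the Rb family, the E2F factors and the DREAM complex, which represses cell cycle genes in resting cells. Of these, 16 were listed a single time, and all 16 were above the minimum. With the knockdown 5 were lower and 5 higher at 0.5 kPa, and 8 lower and 5 higher at 12 kPa, against the same shares. Between stiffnesses 1 was lower and 5 were higher in control NPCs, where 16.9% and 17.9% of all genes were. In shSrf NPCs these were 2 and 2, where 13.0% and 17.6% of all genes were. The E2F partner Tfdp2 (-0.38 and -0.63) and the factors E2f8 (-0.27 and -0.36) and E2f3 (-0.31 and -0.27) were lowest in shSrf against control NPCs. The pocket protein gene Rbl2 (0.38 and 0.51), the other E2F partner Tfdp1 (0.53 and 0.32) and the DREAM subunit gene Lin37 (0.60 and 0.23) were highest, Lin37 at 12 kPa being at 0.04 after centring for GC content.

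The Cdk inhibitors restrain the kinases above. Of 7 genes 6 were above the minimum, and with the knockdown 5 were higher and 0 lower at 0.5 kPa, with 4 higher and 1 lower at 12 kPa, where 37.4% and 37.6% of all genes were higher. Cdkn2a, the Ink4a/Arf locus, had FPKM values of 754 and 666 in control and of 1285 and 1338 in shSrf NPCs, with log2 ratios of 0.77 and 1.01. Its level was thus of the order of that of Cdk4 in every library. Cdkn1a, which encodes p21, was at 13.1 and 8.44 in control and 17.7 and 16.4 in shSrf NPCs, and control on the stiff matrix was its lowest library. Cdkn2b was at 112 and 95.1 in control and at 151 and 151 in shSrf NPCs. Cdkn1b had log2 ratios of 0.17 and 0.24, Cdkn2d of 0.44 and 0.09 and Cdkn2c of -0.10 and -0.14, and Cdkn1c was at or near 0 in all libraries. In control NPCs 3 of the 6 were lower and 1 higher on the stiff matrix, where 16.9% and 17.9% of all genes were. In shSrf NPCs all 6 were within 1.1-fold, where 7277 of all 10489 genes were. Of these Cdkn1a (-0.16) and Cdkn2d (-0.20) passed it after centring for GC content.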

How the data were processed

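RNA from control and shSrf N31 NPCs on 0.5 and 12 kPa matrices was sequenced single-end from stranded libraries, 1 library for each condition. The authors trimmed the reads with cutadapt 1.9.1, mapped them to mm10 with TopHat2 2.1.0 and Bowtie2 2.2.8 and the GENCODE M14 annotation, kept reads of high mapping quality and calculated the deposited FPKM with Cufflinks 2.2.1 (RPKM in the study's methods). Whether strand was used in counting is not given in the sources used here. With 14 of the 49 members overlapping another protein-coding gene in RefSeq, and 5 having named pseudogenes, shared reads may enter their values.

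FPKM was used as deposited. Each library had 21997 rows, and 63 symbols with several rows were dropped. Following the study's methods, genes above an FPKM of 2 in all 4 libraries entered ratios, and 1.1-fold was the threshold. Ratios were log2 values without a pseudocount. All 49 members were named, and from each list of related genes the 3 lowest and 3 highest mean log2 ratios of shSrf to control, or all genes of a list of 7 or fewer. Related genes past 1.1-fold in opposite directions, and Orc1, were named after their values were seen. Members and lists were chosen with earlier results of these data known. Dut, Ncapg2 and Rb1 of these lists were not among the symbols listed a single time, so they were not used here, whatever their level.

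Depth was read from the whole-read steps in values under an FPKM of 0.1, with transcript lengths of GENCODE M1 less 200 nucleotides. The standard error from counting of a member's log2 ratio had a median of 0.03 and reached 0.13. Such errors cover reads only, not culture or library preparation. GC content came from the same transcripts, for 91.2% of included genes, in 50 bins. Depth and ratio calculations were tested on simulated data. Alternatives were a minimum FPKM of 1 or 5 or none, a pseudocount of 1, centring on the median, scaling to the 75th percentile, centring within GC bins, and thresholds of 1.2 and 1.5-fold. Calculations ran in numpy 2.4.6 and pandas 2.3.3 under Python 3.11.15, with figures from matplotlib 3.10.9.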

Additional observations from a re-analysis of the deposited data

Results flagged for a closer look

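Some members and some of the related genes passed 1.1-fold in opposite directions under the same contrast. For the ratio of 12 to 0.5 kPa 3 of the 48 members did, beside 6.01% of all genes. For the ratio of shSrf to control 2 members did, beside 2.42% of all genes. The members were thus close to the share of all genes. With 1 library for each condition these differences were not tested, and the values are differences of log2 ratios. For the ratio of 12 to 0.5 kPa, the value in shSrf NPCs minus that in control NPCs was -0.54 for Mad2l1 (-0.29 against 0.26), -0.68 for Cenpe (-0.23 against 0.45) and -0.74 for Ccnd2 (-0.36 against 0.38). Among the related genes it was -0.57 for Clspn (-0.17 against 0.39), -0.30 for Smc4 (-0.15 against 0.15), 0.51 for Cenpm (0.30 against -0.20), 0.35 for Dlgap5 (0.14 against -0.21) and 1.11 for Cit (0.33 against -0.79). Control NPCs were thus higher on the stiff matrix in the members and in Clspn and Smc4, and lower in Cenpm, Dlgap5 and Cit. Cit was near the minimum FPKM of 2, at 4.09 and 2.37 in control and 2.84 and 3.57 in shSrf NPCs.

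For the ratio of shSrf to control, the value at 12 kPa minus that at 0.5 kPa was 0.45 for Mcm2 (0.24 against -0.21) and -0.68 for Cenpe (-0.22 against 0.45). Among the related genes it was 1.11 for Cit (0.59 against -0.52), -0.57 for Clspn (-0.42 against 0.15), -0.46 for Lin9 (-0.24 against 0.22) and -0.30 for Chaf1b (-0.15 against 0.16). For any gene this difference is by construction the same number as the stiffness difference above, from the same 4 libraries. The repeated values of Cenpe, Clspn and Cit are therefore not separate observations.

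After centring within GC bins the stiffness ratios of all these genes but Smc4 (-0.09 and 0.10) stayed past 1.1-fold in opposite directions. Of the knockdown ratios, those of Cit and Clspn did. The 12 kPa value came within 1.1-fold for Mcm2 (0.05), Cenpe (0.0074) and Lin9 (0.075), and the 0.5 kPa value for Chaf1b (0.06).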

How the results depend on the processing

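No paired analysis was possible because there was a single library a condition. Over 8 counts and 8 medians, the minimum, pseudocount, median and 75th percentile alternatives moved no median beyond counting error and only 1 count by more than 1.5 times, that of members lower on the stiff matrix in control NPCs, which went from 1 to 2 with a minimum FPKM of 1, and again without a minimum but with 1 FPKM added, where E2f2 enters. They kept 77 or 78 of the 78 member ratios past 1.1-fold (75 of 75 with a minimum of 5). Centring within GC bins changed the knockdown medians, to 0.011 at 0.5 kPa and 0.0031 at 12 kPa for S-phase genes and to 0.16 and 0.064 for mitotic genes, and the count of lower members at 12 kPa from 14 to 7. It left 55 of the 78 ratios past 1.1-fold and brought 23 within it, among them the knockdown ratio of Cenpe at 12 kPa, which changed sign to 0.0074, as that of Lin9 did to 0.075. At 1.2-fold, control NPCs had 1 member lower and 3 higher on the stiff matrix and shSrf NPCs 3 lower and 1 higher. With the knockdown 3 were lower and 12 higher at 0.5 kPa, and 6 lower and 8 higher at 12 kPa. The share of all genes past 1.2-fold was not computed, so these counts have no background beside them. At 1.5-fold, 0 were lower and 0 higher in each stiffness comparison, and with the knockdown 0 were lower and 3 higher at 0.5 kPa and 1 lower and 1 higher at 12 kPa. Depth did not limit most members, which held an estimated 246 to 49593 reads in a library, but the spread between cultures was not measured.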

Other observations

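Orc1, a subunit of the origin recognition complex that marks replication origins, was chosen after its values were seen. Its FPKM was 26.4 and 19.7 in control and 19.9 and 13.0 in shSrf NPCs on the 0.5 and 12 kPa matrices. It was lower on the stiff matrix in each population, with log2 ratios of -0.42 and -0.62, and lower with the knockdown at each stiffness, with log2 ratios of -0.40 and -0.60. After centring within GC bins these were -0.45 and -0.58, and -0.33 and -0.46. Among the members, Ccnd1 alone was lower on the stiff matrix in each population, where 3.24% of all genes were. No member was lower by more than 1.1-fold in all 4 comparisons, as Orc1 was. The share of all genes lower in all 4 was not computed, so the absence of such members has no background beside it.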
